A study of Mus musculus with 12 samples.

Results

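The genes described here are 10 regulators and enzymes of de novo lipogenesis, the making of fatty acids from acetyl-CoA, in mouse liver. They were taken by symbol from the deposited table of counts and make up 10 of its 15846 genes. All 10 passed a filter on low counts that left 14736 genes for testing. RNA was sequenced after removal of ribosomal RNA from whole livers of 12 C57BL/6 mice aged 5 months, in 4 groups of 3. The groups were wild type (WT) on chow, the hepatocyte Shp deletion that the labels write as Shp Hep-/- (KO here) on chow, WT on the diet labelled HFCF, and KO on HFCF. Neither the full name and length of the HFCF diet nor the Cre line behind the deletion is given in the sources used here. The product of Shp (Nr0b2 in gene tables) is a nuclear receptor with no DNA-binding domain of its own, and it represses other nuclear receptors. The design asks how the diet acts in each genotype, how the genotypes differ on each diet, and whether the diet effect depends on the genotype.

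Lipogenesis starts from citrate, which leaves the mitochondria and is split into acetyl-CoA. Acetyl-CoA carboxylase turns acetyl-CoA into malonyl-CoA, and fatty acid synthase joins both into palmitate with NADPH as reductant. In liver, insulin acts on these genes largely through SREBP-1c, a product of Srebf1, and sugars act through ChREBP, the product of Mlxipl, while oxysterol receptors of the LXR family also raise Srebf1.

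Libraries held between 13967116 and 18324134 counts. Nr0b2 lay between 22.4 and 53.4 CPM (counts over the library total, with TMM factors) in the 6 WT livers. In the 6 KO livers it lay between 0.21 and 1.01 CPM, so every library matched the genotype in its label. Nr0b2 was not a check of the diet in the label. The 11 hepatocyte markers analysed summed to 67400 to 68300 CPM in WT chow, 59560 to 71570 in KO chow, 54480 to 61340 in WT HFCF and 63050 to 65450 CPM in KO HFCF livers, so WT HFCF lay wholly below WT chow. One library stood apart: WT HFCF replicate 1 differed more from replicates 2 and 3 (chi-square over its degrees of freedom 32.2 and 34.4) than those did from each other (11.2), and 9 of the 10 lipogenesis genes lay above their group mean in it, the exception being Mlxipl. Libraries that decide a call are named beside the gene. The labels do not say whether livers were handled in batches. In whole tissue, fewer cells of a type and less RNA per cell cannot be told apart. Below, ± after CPM or FPKM is the SD over 3 livers, ± after a log2 value is the standard error that edgeR's quasi-likelihood model gave with all 12 libraries, and p-values were adjusted by Benjamini-Hochberg over all 14736 tested genes, with calls at values under 0.05.

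The promoters of the genes that the results turn on are printed here, but for the third Srebf1 start. The members that rose together on HFCF can thus be read beside Fasn, which did not rise, and Mlxipl. Among these genes, Mlxipl held the only exact matches to the SREBP element pattern and to the E-box pattern. Each is the 250 bases before a listed start, from RefSeq (GRCm38.p6, the assembly of mm10), 5′ to 3′ on the strand of the gene. All 10 genes matched the RefSeq table, with 14 starts in all. The listed starts of Acaca and Acacb lie 65766 and 18983 bases inside the gene of the deposited table. The stretches before the gene starts of these genes were therefore not searched. Capitals mark matches on either strand to an SREBP element (TCACNCCAC), an E-box (CACGTG), an inverted CCAAT box (ATTGG) or a GC box (GGGCGG). The first and second Srebf1 starts are on the minus strand at chr11:60222582-60222831 and chr11:60220628-60220877, and Thrsp is on the minus strand at chr7:97417551-97417800. Aacs is on the plus strand at chr5:125475623-125475872. Fasn is on the minus strand at chr11:120824548-120824797, upstream of the gene start in the deposited table. The first and second Mlxipl starts are on the plus strand at chr5:135106641-135106890 and chr5:135089640-135089889, the latter upstream of the gene start in the deposited table.
Srebf1, first start: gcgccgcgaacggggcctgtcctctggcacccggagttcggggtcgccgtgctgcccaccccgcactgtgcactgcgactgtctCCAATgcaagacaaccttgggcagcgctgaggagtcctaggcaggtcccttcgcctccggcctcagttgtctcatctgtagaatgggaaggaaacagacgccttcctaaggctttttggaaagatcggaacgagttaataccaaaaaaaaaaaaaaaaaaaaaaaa
Srebf1, second start: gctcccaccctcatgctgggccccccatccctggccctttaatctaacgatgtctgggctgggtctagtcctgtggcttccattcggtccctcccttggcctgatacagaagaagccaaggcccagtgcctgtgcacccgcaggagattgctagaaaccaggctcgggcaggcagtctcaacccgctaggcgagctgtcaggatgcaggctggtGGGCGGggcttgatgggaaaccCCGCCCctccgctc
Thrsp: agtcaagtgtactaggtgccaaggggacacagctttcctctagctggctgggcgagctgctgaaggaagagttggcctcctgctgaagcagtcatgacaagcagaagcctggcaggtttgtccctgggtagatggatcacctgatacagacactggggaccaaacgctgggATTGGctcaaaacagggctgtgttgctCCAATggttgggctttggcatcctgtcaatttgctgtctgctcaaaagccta
Aacs: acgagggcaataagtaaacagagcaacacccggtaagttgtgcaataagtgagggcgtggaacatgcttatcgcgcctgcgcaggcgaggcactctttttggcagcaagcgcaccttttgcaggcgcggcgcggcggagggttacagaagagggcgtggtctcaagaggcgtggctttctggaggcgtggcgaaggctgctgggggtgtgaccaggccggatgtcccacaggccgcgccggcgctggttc
Fasn: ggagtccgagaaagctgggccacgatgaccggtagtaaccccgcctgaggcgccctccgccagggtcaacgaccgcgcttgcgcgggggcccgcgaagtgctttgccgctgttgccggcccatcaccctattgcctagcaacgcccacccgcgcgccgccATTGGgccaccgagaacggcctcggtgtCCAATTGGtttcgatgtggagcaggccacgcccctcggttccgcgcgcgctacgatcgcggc
Mlxipl, first start: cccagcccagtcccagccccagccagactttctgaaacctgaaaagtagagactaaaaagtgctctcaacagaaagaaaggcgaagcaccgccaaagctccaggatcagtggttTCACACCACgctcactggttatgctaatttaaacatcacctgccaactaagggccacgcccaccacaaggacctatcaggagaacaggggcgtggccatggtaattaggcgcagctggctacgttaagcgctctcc
Mlxipl, second start: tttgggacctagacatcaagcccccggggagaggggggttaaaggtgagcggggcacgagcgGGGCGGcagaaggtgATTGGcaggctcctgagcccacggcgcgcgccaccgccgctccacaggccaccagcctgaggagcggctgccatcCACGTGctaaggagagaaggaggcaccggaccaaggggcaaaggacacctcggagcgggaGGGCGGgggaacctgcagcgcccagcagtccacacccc

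Among all 32851 promoters of this length in the table, 1.05% held the SREBP element, 6.02% an E-box, 33.8% an inverted CCAAT box and 32.7% a GC box. A spaced arrangement of 2 E-boxes with 5 bases between them was found in 0 of the 32851. Both boxes had to match CACGTG exactly, and looser pairs were not searched for. Thrsp held 2 inverted CCAAT boxes, beginning 79 and 52 bases before the start. Fasn held 3, of which the last 2 overlap in a palindrome and begin 62 and 59 bases before the start. Srebf1 held 1 inverted CCAAT box before its first start, 2 GC boxes before its second, and 1 inverted CCAAT box with 2 GC boxes before the third, which lies inside the gene (chr11:60210472-60210721, not printed). Aacs held no match to any motif. The SREBP element of Mlxipl begins 136 bases before its first start and the E-box 98 bases before its second. A match describes letters in this window only. Every motif had to match its pattern exactly, so sites with other letters were not counted, also before the Srebf1 starts. Counts per gene sum all transcripts, so SREBP-1a and SREBP-1c, or ChREBP forms that begin at different first exons, were not told apart.

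The HFCF diet raised 4 of the 10 genes in WT livers and lowered 1. Thrsp, Aacs and Srebf1 rose 10.2-fold, 6.13-fold and 4.81-fold, Acaca rose 1.37-fold, and Acly fell by 0.37 on the log2 scale. Fasn, Me1, Acss2, Acacb and Mlxipl did not pass the test. Over all tested genes, 7.76% rose and 5.9% fell in this comparison, and the median log2 fold change of the 10 was 0.23 against -0.0033 for all tested genes. All 5 calls held without each of the 6 libraries in turn.

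In KO livers the same diet raised 1 of the 10 genes, Srebf1 (2.1-fold), and lowered 2, Fasn and Me1. The shares over all tested genes were 1.47% up and 1.18% down, and the median of the 10 was -0.11 against -0.000026. The Srebf1 call held without each library. The Fasn call was lost without KO chow replicate 3 and without KO HFCF replicates 1 or 3 (edgeR adjusted p = 0.0737, 0.113 and 0.0888), and the Me1 call was lost in 5 of 6 such fits, all but that without KO chow replicate 2.

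Between genotypes on chow, 1 of the 10 genes was called, Acss2, which was lower in KO. No member was called higher (0 by edgeR, DESeq2 and limma voom, 2 at an unadjusted edgeR p under 0.05), while 9.72% of all tested genes were higher and 5.82% lower in KO. The median of the 10 was 0.11 against 0.0041 over all tested genes. On HFCF, 6 of the 10 genes were lower in KO than in WT (Thrsp, Aacs, Srebf1, Me1, Acss2 and Acaca) and none was higher by edgeR, DESeq2, limma voom or an unadjusted edgeR p under 0.05. Over all tested genes 10.6% were higher and 8.52% lower in KO on HFCF, and the median of the 10 was -0.52 against 0.020. The 2 comparisons of diet and the 2 of genotype share libraries in pairs, so their counts are not independent of each other.

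The diet effect itself differed between the genotypes for 3 of the 10 genes, Srebf1, Thrsp and Aacs, each with the smaller effect in KO. Over all tested genes the interaction called 0.373% up and 0.421% down, and the median of the 10 was -0.59 against -0.00066. No member was called up by edgeR, DESeq2 or limma voom, or at an unadjusted edgeR p under 0.05, where 6 were down. These calls are close to the threshold. Srebf1 was lost in 7 of the 12 fits that each left out 1 library, Thrsp in 11 and Aacs in 10.

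**Figure D1:**
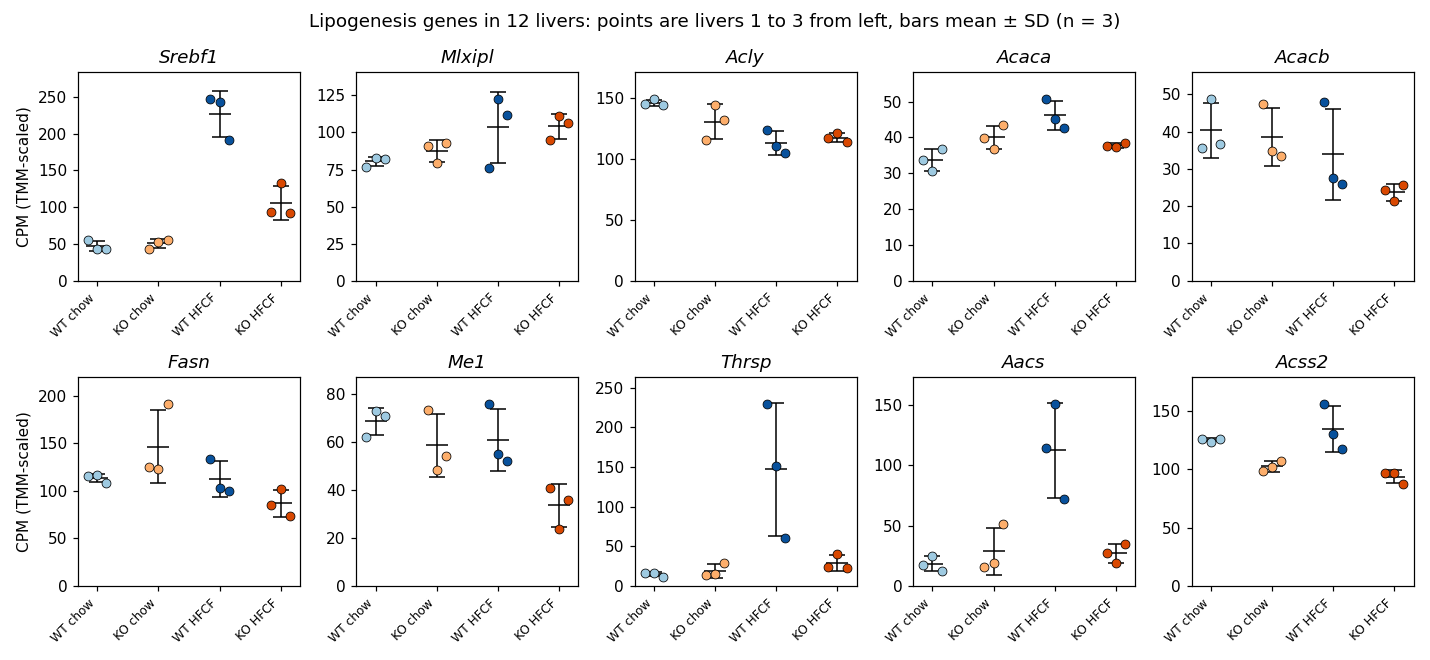
CPM of the 10 lipogenesis genes in each of 12 livers, with livers 1 to 3 of a group from left to right, a horizontal mark for the mean and bars for the SD (n = 3 per group). Srebf1, Thrsp and Aacs stand highest in the WT HFCF livers, and the lowest WT HFCF liver of each (191, 60.8 and 72.0 CPM) lies above all 9 other livers.

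**Figure D2:**
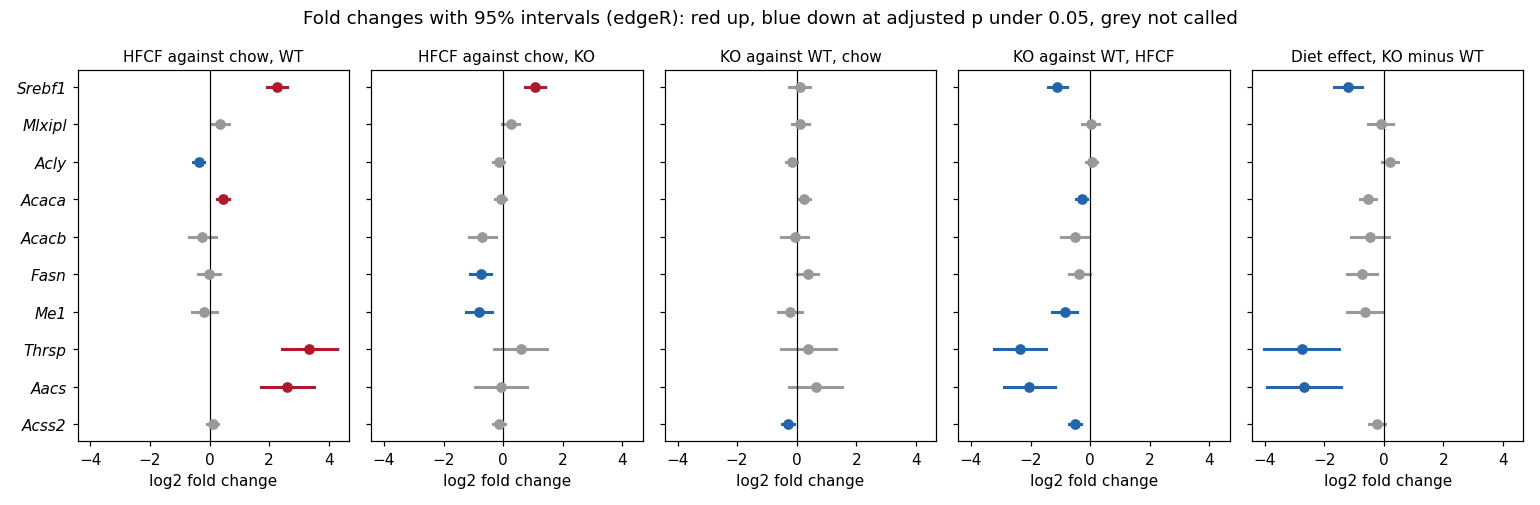
Log2 fold change (x axis) of each gene in the 2 diet comparisons, the 2 genotype comparisons and the difference between the diet effects, with 95% intervals from edgeR. Red points are up and blue points down at an adjusted p under 0.05, and grey points were not called, which leaves 5, 3, 1, 6 and 3 coloured points from left to right.

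Srebf1 (ENSMUSG00000020538, chromosome 11, 60199089 to 60222581, minus strand) encodes the membrane-bound transcription factors SREBP-1a and SREBP-1c, which are cleaved to act on lipogenic promoters. WT chow livers held 55.5, 42.8 and 43.4 CPM of it, and KO chow livers 43.7, 52.7 and 55.2 CPM. On HFCF it reached 247, 243 and 191 CPM in WT and 93.1, 133 and 92.0 CPM in KO. The chow groups overlap, all 3 KO HFCF livers lie above all 6 chow livers, and all 3 WT HFCF livers lie above every KO HFCF liver. The diet raised Srebf1 by 2.27 ± 0.16 in WT (edgeR adjusted p = 2.89e-06) and by 1.07 ± 0.16 in KO (edgeR adjusted p = 0.00236) on the log2 scale. On HFCF it was 2.14-fold lower in KO (log2 -1.10 ± 0.15, edgeR adjusted p = 0.000278), and on chow the difference was 0.10, with a 95% interval of -0.24 to 0.44 (edgeR adjusted p = 0.724). The diet effect in KO minus that in WT was -1.20 ± 0.22 (edgeR adjusted p = 0.0341), and this call was lost, for example, without KO chow replicate 3 (edgeR adjusted p = 0.0715).

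Mlxipl (ENSMUSG00000005373, chromosome 5, 135106891 to 135138384, plus strand) encodes ChREBP, the glucose-responsive factor that pairs with Mlx on carbohydrate response elements. Mlxipl was at 76.8, 82.7 and 81.9 CPM in WT chow and 90.7, 79.1 and 92.8 CPM in KO chow livers, and at 76.1, 123 and 112 CPM in WT HFCF and 95.1, 111 and 106 CPM in KO HFCF livers. No comparison called it: the diet effect was 0.36 ± 0.14 in WT (edgeR adjusted p = 0.0969) and 0.25 ± 0.14 in KO (edgeR adjusted p = 0.357), and the genotype difference on HFCF was 0.01, with a 95% interval of -0.28 to 0.30. WT HFCF replicate 1 was the lowest of the 6 HFCF livers, and without it the diet effect in WT was 0.54 and passed the test (edgeR adjusted p = 0.00262). Mlx, the partner of ChREBP, had log2 fold changes between -0.14 and 0.00 in the 5 comparisons, none of which passed the test (lowest edgeR adjusted p = 0.392).

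Thrsp (ENSMUSG00000035686, chromosome 7, 97412938 to 97417730, minus strand) encodes Spot 14, a small protein induced by thyroid hormone and carbohydrate that promotes lipogenesis. It showed the largest diet response of the 10 genes in WT and was the most variable of them among the WT HFCF livers. Thrsp was at 16.2, 15.6 and 11.5 CPM in WT chow, 13.6, 14.5 and 28.9 CPM in KO chow, 229, 151 and 60.8 CPM in WT HFCF, and 23.8, 40.2 and 22.3 CPM in KO HFCF livers. The WT HFCF livers spread widely yet lie above all other livers, while the KO HFCF livers overlap the KO chow livers. The diet effect was 3.35 ± 0.43 in WT (edgeR adjusted p = 0.000322) and 0.60 ± 0.41 in KO (edgeR adjusted p = 0.489), and Thrsp was 5.13-fold lower in KO than in WT on HFCF (log2 -2.36 ± 0.40, edgeR adjusted p = 0.00122). The difference between the diet effects was -2.75 ± 0.59 (edgeR adjusted p = 0.0497), and it was kept only without WT HFCF replicate 3 when single libraries were left out (edgeR adjusted p of 0.0527 to 0.114 in the other 11 fits). Mid1ip1, the paralog of Thrsp that promotes polymerisation of acetyl-CoA carboxylase, was at 17.9, 16.3 and 17.9 CPM in WT HFCF and 10.8, 14.6 and 9.62 CPM in KO HFCF livers. Mid1ip1 was lower in KO on HFCF by a log2 of -0.58 ± 0.14 (edgeR adjusted p = 0.011), and its diet effect in WT was 0.31 ± 0.14 (edgeR adjusted p = 0.161).

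Acly (ENSMUSG00000020917, chromosome 11, 100476353 to 100528000, minus strand) encodes ATP citrate lyase, which splits cytosolic citrate into acetyl-CoA and oxaloacetate. It went the other way from Srebf1 in WT livers, at 145, 149 and 144 CPM on chow and 124, 111 and 104 CPM on HFCF, groups that do not overlap. KO livers stood at 116, 144 and 132 CPM on chow and 117, 121 and 114 CPM on HFCF, which overlap. Acly fell by 0.37 on the log2 scale with the diet in WT, with an SE of 0.09 (edgeR adjusted p = 0.0126), against -0.15 ± 0.09 in KO (edgeR adjusted p = 0.374), and the difference between these effects was 0.22 ± 0.12 (edgeR adjusted p = 0.485).

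Acss2 (ENSMUSG00000027605, chromosome 2, 155517948 to 155585724, plus strand) encodes the acetyl-CoA synthetase that makes acetyl-CoA from acetate in the cytosol and nucleus. WT livers held 126, 124 and 126 CPM on chow and 156, 130 and 117 CPM on HFCF. KO livers held 98.2, 102 and 107 CPM on chow and 97.1, 96.4 and 87.7 CPM on HFCF. KO livers lie below WT livers on both diets with no overlap. Acss2 was lower in KO by a log2 of -0.52 ± 0.09 on HFCF (edgeR adjusted p = 0.00145), a call that held in every alternative run. On chow the difference was -0.29 ± 0.09 (edgeR adjusted p = 0.0465), and this call was lost without each of the 6 chow libraries in turn (edgeR adjusted p of 0.0639 to 0.135). The diet effect was 0.10 in WT (95% interval -0.09 to 0.30) and -0.13 in KO (95% interval -0.33 to 0.07), neither of which passed the test. Exons of Gss, Acss2os and Ggt7 on the opposite strand cover 3.89%, 3.3% and 1.94% of the exon bases of Acss2, and since the strand setting of the counting is not given in the sources used here, reads from those stretches could not be assigned.

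Aacs (ENSMUSG00000029482, chromosome 5, 125475814 to 125517412, plus strand) encodes acetoacetyl-CoA synthetase, which feeds acetoacetate into lipid and sterol synthesis in the cytosol. Aacs was at 17.4, 25.0 and 12.6 CPM in WT chow and 114, 151 and 72.0 CPM in WT HFCF livers. KO livers stood at 15.6, 18.7 and 51.4 CPM on chow and at 27.0, 19.2 and 35.0 CPM on HFCF. WT HFCF livers lie above all others, and KO chow replicate 3 is well above the other 5 chow livers. The diet effect was 2.62 ± 0.42 in WT (edgeR adjusted p = 0.0013) and -0.07 ± 0.40 in KO (edgeR adjusted p = 0.955). On HFCF, Aacs was 4.13-fold lower in KO (log2 -2.05 ± 0.40, edgeR adjusted p = 0.00305). The difference between the diet effects was -2.68 ± 0.58 (edgeR adjusted p = 0.0497). Without KO chow replicate 3 it was -1.95 and was not called (edgeR adjusted p = 0.0817), the diet effect in KO was 0.67 (edgeR adjusted p = 0.318), and the genotype difference on chow went from 0.64 to -0.10, not called in either fit.

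Acetyl-CoA carboxylase has a cytosolic form, ACC1 from Acaca (ENSMUSG00000020532, chromosome 11, 84129672 to 84401651, plus strand), which supplies malonyl-CoA for synthesis. Acaca stood at 33.7, 30.7 and 36.7 CPM in WT chow and 50.7, 45.1 and 42.6 CPM in WT HFCF livers, against 39.9, 36.9 and 43.4 CPM in KO chow and 37.6, 37.3 and 38.5 CPM in KO HFCF livers. WT HFCF livers lie above WT chow livers, while the KO groups overlap. The diet effect was 0.45 ± 0.09 in WT (edgeR adjusted p = 0.00521) and -0.08 ± 0.09 in KO (edgeR adjusted p = 0.674), and the difference between them was -0.54 ± 0.13 (edgeR adjusted p = 0.07). DESeq2 called that difference (adjusted p = 0.0206). On HFCF Acaca was lower in KO by a log2 of -0.29 ± 0.09 (edgeR adjusted p = 0.0364), but the call was lost without 5 of the 6 HFCF libraries, WT HFCF replicate 3 being the exception (edgeR adjusted p of 0.0519 to 0.127).

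Acacb (ENSMUSG00000042010, chromosome 5, 114146535 to 114250761, plus strand) encodes ACC2, the form at the outer mitochondrial membrane whose malonyl-CoA inhibits the entry of fatty acids for oxidation. Its level was 35.6, 48.7 and 36.6 CPM in WT chow and 47.4, 34.6 and 33.5 CPM in KO chow livers, and at 48.0, 27.5 and 26.0 CPM in WT HFCF and 24.3, 21.3 and 25.7 CPM in KO HFCF livers. The 3 KO HFCF livers are the lowest of the 12, and WT HFCF replicate 1 stands well above the other 5 HFCF livers. No comparison called it: the diet effect was -0.25 ± 0.21 in WT (edgeR adjusted p = 0.476) and -0.70 ± 0.21 in KO (edgeR adjusted p = 0.0962), and the genotype difference on HFCF was -0.51 ± 0.21 (edgeR adjusted p = 0.114). Without WT HFCF replicate 1 the diet effect in WT was -0.59 and passed the test (edgeR adjusted p = 0.0413), and without WT HFCF replicate 3 the genotype difference on HFCF was -0.67 and passed it as well (edgeR adjusted p = 0.0495). The diet effect in KO was called by DESeq2 (adjusted p = 0.0244) and by edgeR with the compared groups alone (adjusted p = 0.022). The ratio of Acaca to Acacb, in the authors' FPKM, was 0.813 ± 0.19 in WT chow, 1.01 ± 0.216 in KO chow, 1.36 ± 0.317 in WT HFCF and 1.51 ± 0.128 in KO HFCF livers.

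Fasn (ENSMUSG00000025153, chromosome 11, 120805940 to 120824178, minus strand) encodes fatty acid synthase, the enzyme that assembles palmitate. Its level was 115, 117 and 108 CPM in WT chow and 134, 102 and 99.6 CPM in WT HFCF livers, which overlap. KO livers stood at 125, 123 and 191 CPM on chow and 85.4, 102 and 73.2 CPM on HFCF, which do not overlap, with KO chow replicate 3 the highest of all 12. The diet effect in WT was -0.02 ± 0.17, with a 95% interval of -0.38 to 0.34 (edgeR adjusted p = 0.966), beside the 4.81-fold rise of Srebf1 in the same livers. In KO the diet lowered Fasn by a log2 of -0.75 ± 0.17 (edgeR adjusted p = 0.0296), and the difference between the diet effects was -0.74 ± 0.24 (edgeR adjusted p = 0.185).

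Me1 (ENSMUSG00000032418, chromosome 9, 86581363 to 86695914, minus strand) encodes the cytosolic malic enzyme, a source of NADPH for fatty acid synthase. Its level was 61.9, 72.7 and 70.8 CPM in WT chow and 73.2, 48.2 and 54.2 CPM in KO chow livers, and at 75.6, 54.7 and 52.0 CPM in WT HFCF and 40.9, 23.8 and 35.8 CPM in KO HFCF livers. The 3 KO HFCF livers lie below the other 9. Me1 was 1.82-fold lower in KO on HFCF (log2 -0.86 ± 0.20, edgeR adjusted p = 0.00773), and this call held in every alternative run. The diet effect was -0.17 ± 0.19 in WT (edgeR adjusted p = 0.601) and -0.81 ± 0.20 in KO (edgeR adjusted p = 0.0455), and the difference between them was -0.64 ± 0.27 (edgeR adjusted p = 0.335).

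**Figure D3:**
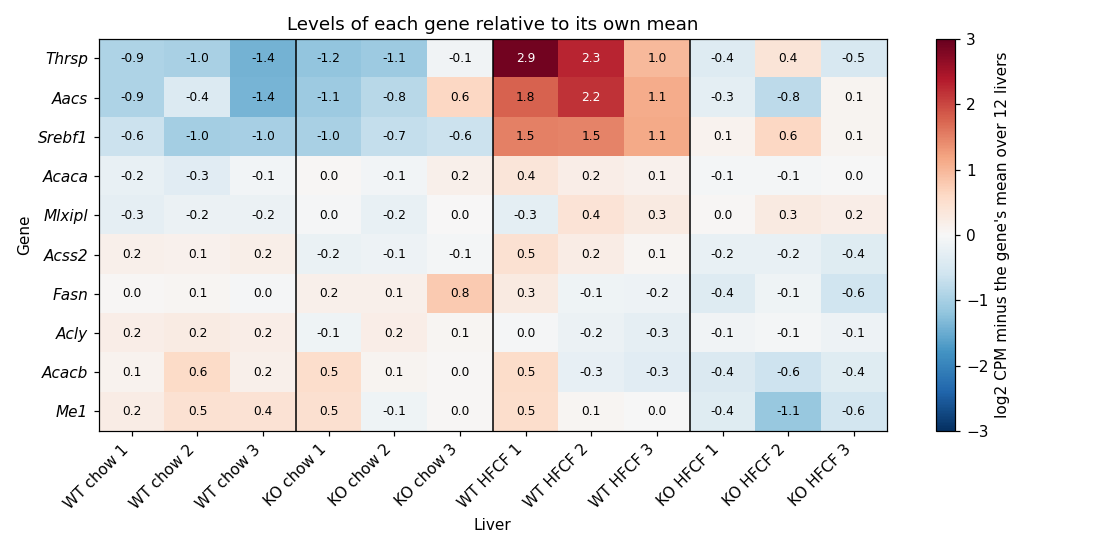
Log2 CPM of each of the 10 genes (rows) in each of 12 livers (columns), as the difference from the mean of that gene over all 12, with the value printed in each cell. Thrsp, Aacs and Srebf1 are well above their means in all 3 WT HFCF livers, and the other 7 genes vary less.

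The 10 genes did not move as a block. Likeness was measured as the root mean square difference of log2 CPM over the 12 livers, after each gene was centred on its own mean, against the 9968 genes whose mean reached 5 CPM. The genes nearest to Thrsp were Aacs (0.566) and Srebf1 (0.569), and those nearest to Aacs were Osbpl5, an oxysterol-binding protein relative (0.535), and Thrsp (0.566). The gene nearest to Srebf1 was Acot11 (0.126), an acyl-CoA thioesterase, and the next was Adam11 (0.327), where the median distance of Srebf1 to all genes compared was 0.961. The closest pairs among the 10 were Acacb with Me1 (0.233) and Acaca with Acss2 (0.245), while Srebf1 and Fasn were 1.07 apart. Median distances to all genes compared were 0.42 for Acacb, 0.498 for Me1, 0.261 for Acaca and 0.277 for Acss2. Acaca and Acss2 were thus little nearer to each other than to most genes. Genes that vary little are near many others by this measure: the nearest to Mlxipl were Cml1 (0.092) and Rrp9 (0.108), to Acly Sumo3 (0.0823) and Eme2 (0.0829), to Acaca Mpv17 (0.0781) and Med22 (0.092), and to Acss2 Def8 (0.0706) and Ndufb8 (0.0716). The nearest to Fasn were Mmab (0.186), which acts in cobalamin metabolism, and Tmem97 (0.199), a sterol-regulated membrane protein. The nearest to Acacb were Abcd2 (0.203), a peroxisomal transporter of very long chain fatty acids, and Eno1 (0.21), and to Me1 Chkb (0.201), a choline kinase, and Gm14764 (0.21).

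Levels of different genes were compared per gene length, in the authors' FPKM. The lengths are those of the deposited table, and some differ from the exon bases of the annotation searched for overlapping exons. Thrsp had 1277 and 2189 bases, Acaca 10189 and 17074, and Acss2 10163 in both. Order, shares and sums across genes therefore depend in part on the lengths used. In WT chow livers Acly was highest (27.3 FPKM), followed by Me1 (18.9), Mlxipl (14.8), Acss2 (12.2), Fasn (11.4), Thrsp (11.2), Srebf1 (8.30), Aacs (4.94), Acacb (4.13) and Acaca (3.27), and the ranges of Fasn and Thrsp, Thrsp and Srebf1, and Aacs and Acacb overlap. In KO chow livers Acly was again highest (25.3 FPKM), followed by Me1 and Mlxipl (both 16.7), Thrsp (15.3), Fasn (15.2), Acss2 (10.3), Srebf1 (9.17), Aacs (8.05), Acacb (4.08) and Acaca (4.02), where only Acly and Me1, and Fasn and Acss2, were neighbours without overlap. The order changed on HFCF in WT livers, where Thrsp led (116 ± 66.1 FPKM), followed by Srebf1 (40.8 ± 5.07), Aacs (30.9 ± 10.3), Acly (21.7), Mlxipl (19.5), Me1 (17.2), Acss2 (13.4), Fasn (11.5), Acaca (4.59) and Acacb (3.56), with Thrsp and Srebf1, and Fasn and Acaca, the neighbours whose ranges do not overlap. In KO HFCF livers Thrsp (22.0 FPKM) and Acly (21.6) overlapped at the top, and Mlxipl (18.9), Srebf1 (18.3), Me1 (9.09), Acss2 (8.97), Fasn (8.59), Aacs (7.17), Acaca (3.61) and Acacb (2.40) followed. There the neighbours without overlap were Acly and Mlxipl, Srebf1 and Me1, Aacs and Acaca, and Acaca and Acacb.

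Srebf1, Thrsp and Aacs, a trio picked after their values were seen, made up 20.9 ± 2.81% of the summed FPKM of the 10 genes in WT chow livers, 25.4 ± 6.64% in KO chow, 65.5 ± 9.38% in WT HFCF and 39.0 ± 4.51% in KO HFCF livers. The summed FPKM of the 7 enzymes (all but Srebf1, Mlxipl and Thrsp) was 82.2 ± 3.09 in WT chow, 83.7 ± 11.2 in KO chow, 103 ± 16.0 in WT HFCF and 61.4 ± 1.47 in KO HFCF livers. The higher WT HFCF sum rests on Aacs: for the other 6 enzymes the sums were 77.2 ± 1.64, 75.7 ± 5.63, 71.9 ± 10.9 and 54.3 ± 1.65 FPKM in the same order. Srebf1 stood at 0.562 ± 0.11 of Mlxipl per length in WT chow, 0.554 ± 0.0889 in KO chow, 2.21 ± 0.779 in WT HFCF and 0.964 ± 0.157 in KO HFCF livers. The coefficient of variation of single genes within a group ranged from 1.2% to 33.9% in WT chow, 4.49% to 69.4% in KO chow, 8.72% to 57.2% in WT HFCF and 1.66% to 34.6% in KO HFCF livers.

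**Figure D4:**
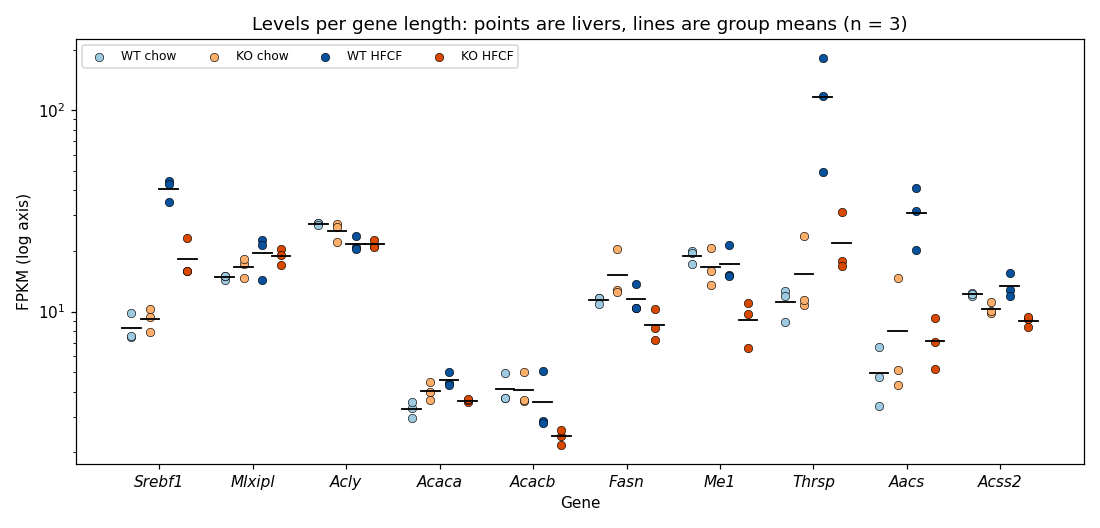
The authors' FPKM of each gene on a log axis, with 1 point per liver, colours for the 4 groups and a line at each group mean (n = 3). Thrsp, Srebf1 and Aacs are the genes whose WT HFCF points stand apart from the other 3 groups, and Acaca and Acacb are low per length in all groups.

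The genes around the pathway were read from 9 lists of 133 tested genes. Of these, 22 rose and 28 fell with HFCF in WT, beside 7.76% and 5.9% of all tested genes. In KO 7 rose and 17 fell, beside 1.47% and 1.18%. On HFCF 12 were higher and 25 lower in KO, beside 10.6% and 8.52%. In single lists, counts of 1 or 2 genes can lie near these shares and are not results about the list. In the list of SREBP-1c and ChREBP control, 1 of 24 genes rose and 4 fell with HFCF in WT, and 0 rose and 2 fell in KO (edgeR; DESeq2 and limma voom also called 0 up there, and 2 were up at an unadjusted edgeR p under 0.05). Insig1, which holds SREBPs in the endoplasmic reticulum, fell by 0.89 on the log2 scale in WT (edgeR adjusted p = 0.00177) and by 1.32 in KO (edgeR adjusted p = 0.000351). Srebf2, which encodes the sterol regulator SREBP-2, fell by 0.90 in WT (edgeR adjusted p = 0.000147) and by 0.80 in KO (edgeR adjusted p = 0.000834), where Srebf1 rose in both. Lpin1, a phosphatidate phosphatase that also restrains nuclear SREBP, fell by 1.45 in WT (edgeR adjusted p = 0.00334) and stood at -0.85 ± 0.26 in KO (edgeR adjusted p = 0.101).

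SREBP-2 sterol targets fell in both genotypes, 12 of 16 in WT and 12 of 16 in KO, with none up by any tool or at an unadjusted p. Their median log2 fold changes were -0.92 and -0.98. Sqle, squalene epoxidase, fell by 3.54 in WT (edgeR adjusted p = 7.8e-06) and by 3.58 in KO (edgeR adjusted p = 7.35e-06), and Cyp51, lanosterol demethylase, by 2.57 and 2.63 (edgeR adjusted p = 4.25e-07 and 4.45e-07). Fdps, farnesyl diphosphate synthase, fell by 1.52 in WT and fell by 2.47 in KO (edgeR adjusted p = 0.000646 and 6.08e-05). LXR sterol targets rose, 7 of 9 in WT and 5 of 9 in KO, with medians of 0.65 and 0.58. Among them Abcg5, a sterol exporter, rose by 1.38 ± 0.10 in WT (edgeR adjusted p = 2.89e-06) and 1.31 ± 0.10 in KO (edgeR adjusted p = 7.35e-06), its partner Abcg8 by 1.02 and 0.99 (edgeR adjusted p = 0.000107 and 0.000351), and Lpl, lipoprotein lipase, by 1.58 and 1.09 (edgeR adjusted p = 1.06e-05 and 0.00028).

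Desaturation, elongation and glyceride synthesis had 3 of 15 genes up and 2 down with HFCF in WT, 0 called in KO (4 up and 2 down at an unadjusted edgeR p under 0.05, 1 each way by DESeq2, 1 down by limma voom), and 1 higher and 5 lower in KO than in WT on HFCF. Scd1, the desaturase that makes oleate and palmitoleate, stood at 4923, 3048 and 4614 CPM in WT chow and 33771, 18412 and 19078 CPM in WT HFCF livers, against 4897, 3527 and 4578 CPM in KO chow and 9602, 4310 and 7517 CPM in KO HFCF livers. WT HFCF livers lie above all others and the KO groups overlap. Scd1 rose by 2.50 ± 0.30 in WT (edgeR adjusted p = 0.000187), stood at 0.72 ± 0.29 in KO (edgeR adjusted p = 0.201), and was 3.33-fold lower in KO on HFCF (edgeR adjusted p = 0.00113). The difference between its diet effects was -1.78 ± 0.40 and did not pass the test (edgeR adjusted p = 0.0607). Scd2, the isoform abundant in brain, rose by 1.16 ± 0.16 in WT (edgeR adjusted p = 0.000576). Elovl2, which elongates polyunsaturated fatty acids, fell by 0.57 in WT (edgeR adjusted p = 0.00621) and was 1.93-fold higher in KO on HFCF (edgeR adjusted p = 0.000114).

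Of the 14 sugar-response genes that ChREBP is known to act on, 3 rose and 2 fell in WT, 1 rose and 1 fell in KO, and 1 was higher and 3 lower in KO on HFCF. Khk, ketohexokinase of fructose metabolism, stood at 196, 187 and 187 CPM in WT chow and 320, 302 and 221 CPM in WT HFCF livers, which do not overlap, and rose by 0.56 ± 0.12 (edgeR adjusted p = 0.00719). It was lower in KO on HFCF by a log2 of -0.79 ± 0.12 (edgeR adjusted p = 0.000482). Gckr, the glucokinase regulator, rose by 0.39 ± 0.09 in WT (edgeR adjusted p = 0.00934) and was lower in KO on HFCF by a log2 of -0.59 ± 0.09 (edgeR adjusted p = 0.000383). Slc2a2, the glucose transporter of hepatocytes, rose by 0.70 ± 0.11 in WT (edgeR adjusted p = 0.00126).

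In citrate and acetyl-CoA supply, 4 of 16 genes rose with HFCF in WT, but 0 without WT HFCF replicate 1, and on HFCF 9 were lower and 1 higher in KO. Pdha1, a subunit of pyruvate dehydrogenase, was lower in KO by a log2 of -0.85 ± 0.08 on HFCF (edgeR adjusted p = 1.12e-05) and -0.54 ± 0.08 on chow (edgeR adjusted p = 0.000629). Acss3, a mitochondrial short-chain acyl-CoA synthetase, was lower by -1.98 ± 0.21 on HFCF (edgeR adjusted p = 2.96e-05) and -1.36 ± 0.21 on chow (edgeR adjusted p = 0.000847). Slc13a5, the plasma membrane citrate transporter, was higher by 2.58 ± 0.38 on HFCF (edgeR adjusted p = 0.000403) and 1.47 ± 0.42 on chow (edgeR adjusted p = 0.0308). Its levels were low, at 0.283 to 1.07 CPM in WT chow and 0.348 to 0.838 in WT HFCF livers. KO livers held 1.27 to 2.83 CPM on chow and 3.63 to 4.33 CPM on HFCF. In NADPH supply, 2 of 10 genes rose and 1 fell in WT, with 0 up without WT HFCF replicate 1, and on HFCF 2 were higher and 2 lower in KO. Tkt, transketolase, was lower in KO on HFCF by a log2 of -0.77 ± 0.14 (edgeR adjusted p = 0.00222). G6pdx, the first enzyme of the pentose phosphate pathway, was higher there by 0.36 ± 0.11 (edgeR adjusted p = 0.04), and so was Me2, the mitochondrial malic enzyme, by 0.63 ± 0.14 (edgeR adjusted p = 0.00634).

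The partners of acetyl-CoA carboxylase and fatty acid synthase had 2 of 15 genes down with HFCF in WT, 1 down in KO and 1 lower in KO on HFCF. Btd, which recycles the biotin cofactor, fell by 0.44 in WT and 0.46 in KO (edgeR adjusted p = 0.00598 and 0.0141), and Prkag1, a subunit of the kinase that inhibits the carboxylase, fell by 0.27 in WT (edgeR adjusted p = 0.0379). Of 14 genes of fatty acid oxidation, 2 rose and 5 fell with HFCF in WT, 0 rose and 1 fell in KO (edgeR; 0 up by DESeq2 and limma voom, 2 up at an unadjusted edgeR p under 0.05), and 2 were higher and 2 lower in KO on HFCF. Cyp4a14, a fatty acid omega-hydroxylase, fell by 2.00 in WT and 1.44 in KO (edgeR adjusted p = 0.000315 and 0.00735), and Cyp4a10 by 0.74 in WT (edgeR adjusted p = 0.00947).

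**Figure D5:**
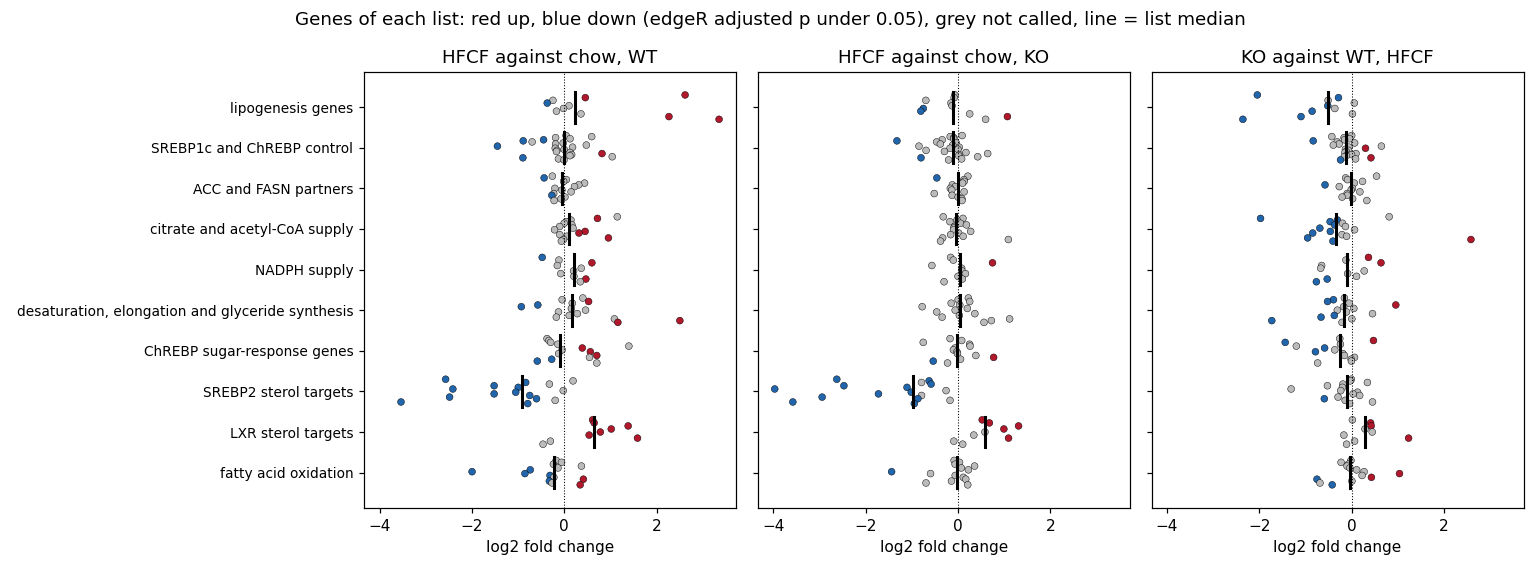
Log2 fold change (x axis) of each gene in the 10 lipogenesis genes and the 9 other lists (rows), for HFCF against chow in WT, HFCF against chow in KO, and KO against WT on HFCF. Red is up and blue is down at an edgeR adjusted p under 0.05, grey was not called, and vertical marks are list medians, which for the SREBP-2 targets stand at -0.92 and -0.98 in the diet comparisons.

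Markers of some other cells moved with the diet and with the genotype. Beside the counts below, 7.76% of all tested genes rose and 5.9% fell with HFCF in WT. On chow 9.72% were higher and 5.82% lower in KO, and on HFCF 10.6% and 8.52%. Lipogenesis genes are also expressed by adipocytes, and of 8 adipocyte markers 4 were analysed (Car3, Cidec, Fabp4 and Adig), of which 3 were tested and all 3 rose with HFCF in WT, 2 of 3 without WT HFCF replicate 1. Their summed level was 800 to 1178 CPM in WT chow, 187 to 570 in KO chow, 4209 to 5156 in WT HFCF and 368 to 516 in KO HFCF livers, most of it Car3, which hepatocytes also express. Fabp4 was at 23.5, 11.6 and 8.31 CPM in WT HFCF livers and at 6.21 to 11.3 CPM in the other 9, and Adig was at 1.71, 0.139 and 0.258 CPM in WT HFCF livers and between 0 and 0.207 CPM elsewhere. The adipocyte markers Adipoq, Lep, Plin1 and Retn were not analysed here. The 9 macrophage markers summed to 367 to 411 CPM in WT chow, 586 to 614 in KO chow, 344 to 700 in WT HFCF and 794 to 847 CPM in KO HFCF livers, and 7 of 9 were higher in KO on chow and 5 of 9 on HFCF. Of the 7 stellate and fibroblast markers 4 rose with HFCF in WT and 3 were higher in KO on chow, with sums of 513 to 632 CPM in WT chow, 749 to 763 in KO chow, 705 to 850 in WT HFCF and 633 to 846 CPM in KO HFCF livers. Of 5 tested T and B cell markers 4 were higher in KO on chow and 2 on HFCF, and the 6 analysed summed to 1.56 to 3.18 CPM in WT chow, 6.20 to 10.4 in KO chow, 2.32 to 2.84 in WT HFCF and 5.23 to 7.83 CPM in KO HFCF livers. Of the 11 hepatocyte markers 4 fell with HFCF in WT (list median -0.34), 4 were lower in KO on chow (list median -0.26), and 3 were higher and 2 lower in KO on HFCF (list median 0.28). Endothelial markers summed to 404.1 to 452.8 CPM in WT HFCF and 415.8 to 423.2 CPM in WT chow livers. Of these 6, 0 were called with the diet in WT or KO, and 1 was higher and 1 lower in KO on HFCF. With HFCF in WT, 1 of 5 biliary and 1 of 5 red blood cell markers rose. On chow, 1 biliary marker was higher and 1 red blood cell marker lower in KO. No marker analysed from these lists was at 0 in all libraries. Without WT HFCF replicate 1, where Fabp4 and Adig were highest, Srebf1, Thrsp, Aacs, Acaca and Acly remained called for the diet in WT. Mlxipl and Acacb were called as well in that fit. The lowest adipocyte sum of a WT HFCF liver was 4209 CPM, so that fit does not take away Car3, which makes up most of the sum. In WT HFCF replicates 2 and 3, Fabp4 was at 11.6 and 8.31 CPM and Adig at 0.139 and 0.258 CPM. The part of any of these cell types in the results above was not tested.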

How the data were processed

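Gene counts per library were used as deposited by the authors, in a table that, per the file headers, also gives FPKM values that the authors derived from the counts. FPKM served only to set levels of different genes side by side and was not tested. Reads had been placed on mm10, according to the submitters' processing notes, and libraries were stranded with ribosomal RNA removed, per the labels' protocols. The sources used here do not name the aligner, counting tool, strand setting or annotation release. The columns named WT were read as WT chow, since the other columns name the diet or the knockout.

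Genes were kept by filterByExpr (minimum count 10, minimum total 15), which removed 1110, and fitted with edgeR 4.0.16 in R 4.3.3 (TMM scaling, glmQLFit, glmQLFTest, 4 group means, all 12 libraries). The common biological coefficient of variation was 0.119. Nothing says whether livers were handled separately beyond being numbered mice of a group, so p-values measure the spread between these samples. Alternatives were RLE scaling, no filter, a filter at 1 CPM, the replicate number as a block, DESeq2 1.42.0, limma 3.58.1 voom, fits of only the groups compared, and of all libraries but 1. Plots used matplotlib 3.10.9 and pandas 2.3.3 under Python 3.11.15.

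The 10 genes and the lists were chosen with earlier results of these data known. Text names all 10 genes, Nr0b2, Mlx, Mid1ip1, the 3 genes of each other list with the lowest adjusted p in any comparison, and the 2 genes nearest to each of the 10 (log2 CPM with a prior count of 2). Some genes that this rule names are not reported here. Promoters were searched for the motifs on both strands. Protein sequences were not used here.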

Additional observations from a re-analysis of the deposited data

Results flagged for a closer look

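By the interaction test, the effect of the HFCF diet differed between KO and WT livers for 3 of the 10 genes. Over all tested genes that test called 0.373% up and 0.421% down. Of 18 alternative runs, the call was lost in 7 for Srebf1 and in 14 each for Thrsp and Aacs. For Srebf1 the diet effect in KO minus that in WT was -1.20 ± 0.22 on the log2 scale (edgeR adjusted p = 0.0341), with a higher level on HFCF than on chow in all 3 livers of both genotypes. For Thrsp it was -2.75 ± 0.59 (edgeR adjusted p = 0.0497), and for Aacs it was -2.68 ± 0.58 (edgeR adjusted p = 0.0497), with all 3 WT HFCF livers above all other livers for both genes and overlapping KO groups.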

How the results depend on the processing

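Of 50 values (10 genes in 5 comparisons), 18 were called, 11 of them in every alternative, and 27 were called in none. Over all tested genes, 7.76% were called up and 5.9% down for the diet in WT, and 1.47% and 1.18% in KO. For the genotype the shares were 9.72% and 5.82% on chow and 10.6% and 8.52% on HFCF. For the interaction they were 0.373% and 0.421%. Without 1 library at a time, the called members numbered 1 to 3 for the diet in KO and 0 for the genotype on chow. They numbered 5 to 7 for the genotype on HFCF and 0 to 3 for the interaction. All genes called numbered 1100 to 2264 for the diet in WT and 157 to 336 in KO. For the genotype they numbered 1152 to 1691 on chow and 2042 to 2631 on HFCF, and for the interaction 11 to 136. DESeq2 called 656 genes for the diet in KO and 344 for the interaction, and a fit of the compared groups alone, which the interaction does not allow, 603 for the diet in KO. A stricter filter left 0 members called for the genotype on chow and 1 for the interaction, and voom 1 for the interaction. The replicate block gave 0 members for the genotype on chow and 1 for the interaction (Thrsp and Aacs at edgeR adjusted p = 0.0595 and 0.0681), and 5, 3 and 6 elsewhere, as without it. Deviations of 18 same-numbered pairs correlated at -0.148 to 0.167, 4 of them over 0.1, and those of other pairs at -0.144 to 0.152. Of the 12 libraries, 7 correlated best with a library of their own number. These values neither show that the numbers pair livers nor exclude it. Sign changed, without a call, in leaving out libraries for Fasn (-0.17 to 0.060) and Acss2 (-0.018 to 0.19) for the diet in WT, Aacs in KO (-0.37 to 0.67, and 0.11 by voom), Acacb (-0.24 to 0.085), Thrsp (-0.040 to 0.59) and Aacs (-0.10 to 0.94) for the genotype on chow, Mlxipl (-0.17 to 0.15) and Acly (-0.0015 to 0.12) on HFCF, and Mlxipl for the interaction (-0.29 to 0.031). Mlxipl on HFCF was -0.0054 with RLE scaling, -0.0058 by DESeq2 and -0.0024 with the compared groups alone. The cause was not tested.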
